A study of Saccharomyces cerevisiae with 2 samples.

Results

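Haploid Saccharomyces cerevisiae strains that each lack 1 gene of nucleotide excision repair, base excision repair, photolyase repair, mismatch repair or non-homologous end joining were compared between a pool that overexpressed LCD1 and a control pool. The 32 strains were taken from a list of named repair genes, and each was found through the features that the platform annotation assigns to its gene. They made up 32 of 5325 named strains with values: 12 for nucleotide excision repair, 7 for base excision repair, 1 for direct reversal by photolyase, 6 for mismatch repair and 6 for end joining. All 32 had a reading for both of their tags on both arrays, and no filter on low values was applied.

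Both pools came from 1 starting pool of 5896 heterozygous diploid deletion strains that can be turned into haploids, so all compared cells were deletion haploids and no wild-type culture was part of the comparison. The LCD1 pool carried a plasmid with LCD1 under the galactose-inducible GAL1 promoter, and the control pool a control plasmid, both selected by URA3. After sporulation, haploids were selected for 3 days at 30 °C with 2% galactose as the only carbon source, and the labels name no DNA-damaging agent. The strain tags, short DNA barcodes at both ends of each deletion, were amplified from genomic DNA and hybridised to 2 two-colour tag arrays (array 1 and array 2), with the LCD1 pool in Cy3 and the control pool in Cy5 on both. Dye and pool cannot be told apart in this design. The sample titles number the arrays as experiment 1 and experiment 2, but the labels do not tell whether separate cultures were used for them. The p-values therefore measure the spread between these arrays, which may be technical.

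Lcd1, also called Ddc2, binds the checkpoint kinase Mec1 and brings it to single-stranded DNA. The excision routes cut a damaged stretch or base out of 1 strand and refill the gap, mismatch repair does the same for replication errors, and end joining ligates broken ends without a template. Their substrates and intermediates include the gaps, nicks and broken ends that checkpoint proteins also meet. Most of the 32 genes are dispensable in unstressed cells. RAD3 is the exception, since its helicase is also part of the transcription factor TFIIH and its deletion haploid does not grow.

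Each value is a log2 ratio with the LCD1 pool on top and the control pool below, in the likely direction, so that a negative value means fewer tags in the LCD1 pool. The labels give the dyes but not the numerator of the deposited ratio. The LCD1 deletion strain gives the likely direction, since without the essential LCD1 gene it should grow only with the LCD1 plasmid: its deposited ratios were 0.05 and 0.44 on array 1 and 0.03 and 0.73 on array 2, all below 1, which fits control over LCD1 pool. The deposited signs were therefore turned over, and if the direction were the other one, every "lower" below would read "higher" and the reverse. Features fell into 2 blocks, called here the first and the second tag. Each block was centred on its median per array, and a strain value is the mean of both tags on an array. Means are given ± SD over the 2 arrays (n = 2), and so few arrays limit the precision.

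The repair strains as a group lay close to the centre of the pool. Their median was 0.0038 (quartiles -0.17 and 0.18), beside 0.036 (quartiles -0.20 and 0.29) for all 5325 strains, with 15 of the 32 below 0 and 17 above. Group medians were -0.0022 on array 1 and -0.010 on array 2. Apart from RAD3, every strain mean lay between -0.43 (RAD14) and 0.44 (OGG1). In all, 31 of 32 means were within 0.5 of 0, against 79.3% of all strains. The 2 sets are unlike, since all strains include deletions of essential genes, while RAD3 is the exception among the 32. The part of this in the comparison was not tested.

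The RAD3 deletion was the 1 repair strain at least 2-fold lower on both arrays, a rule that took 97 of all strains (1.82%). None of the 32 was at least 2-fold higher on both arrays, a rule that took 37 of all strains (0.695%). With a 1.5-fold rule the counts stayed at 1 lower, beside 4.34% of all strains, and 0 higher, beside 3.87%.

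limma's moderated test with Benjamini-Hochberg adjustment over all strains called 0 of the 32 in either direction, as it called 0 of the 5325 (0%). The lowest adjusted p among the repair strains was 0.113, for RAD3. Without adjustment, 2 strains, RAD3 and RAD14, had a limma p under 0.05 on the lower side, beside 10.8% of all strains, and 0 on the higher side, beside 11.6%. A limma fit of the 4 tag values per strain, which counts more values than there are arrays, also called 0 of the 32, although it called 0.263% of all strains as lower and 0.188% as higher. Its adjusted p for RAD3 was 0.0543. How this fit treats the 4 values decided its calls, as 2 alternatives added after seeing the data showed. With the array as a random block limma called RAD3 lower (adjusted p 0.0168) along with 4.58% of all strains. It called 4.32% as higher, with 0 repair strains among them. This fit estimated a correlation of -0.36 between the tags of an array, taken around each strain's own mean. A negative value narrows the standard error of each mean in this fit. The tag readings themselves had a positive r within each array, 0.087 and 0.14 over all strains. With the tag as a random block limma called 0 of all strains, and RAD3 had an adjusted p of 0.0928.

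A missed threshold does not show that a strain was equally abundant in both pools. The 95% intervals of limma, not adjusted for the number of strains, had a median half-width of 0.39 among the repair strains. They lay wholly within 2-fold either way for 28 of the 32, and for 77.3% of all strains. The 4 whose interval reached 2-fold were RAD3 (-2.10 to -1.24), OGG1 (-0.55 to 1.44), APN1 (-1.0002 to 0.32) and MLH2 (-1.42 to 2.12). These intervals rest on the 2 array values after both tags were averaged. A disagreement between tags that repeats on both arrays does not widen them. EXO1, for instance, had tag means of 0.30 and -0.61 but an interval of -0.52 to 0.21.

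**Figure D1:**
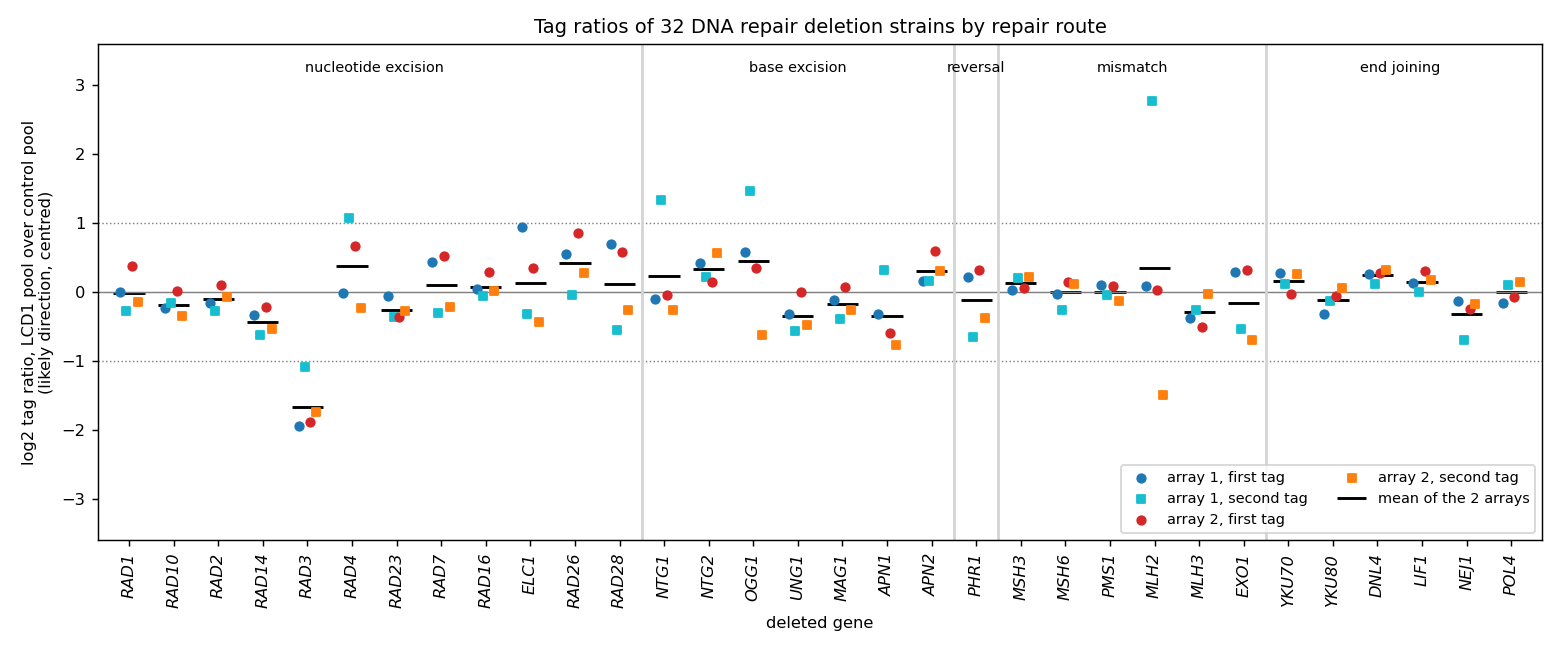
Tag ratios of the 32 repair deletion strains, ordered by repair route along the horizontal axis. The vertical axis is the centred log2 ratio of LCD1 pool over control pool. Circles are first tags, squares second tags, and bars the mean of the 2 arrays. RAD3 is the 1 strain with all 4 readings below -1 (dotted line), and the second tag of MLH2 reads 2.77 on array 1 and -1.49 on array 2.

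In nucleotide excision repair, Rad14 binds the lesion, the Rad1-Rad10 nuclease cuts on its 5′ side, Rad2 cuts on its 3′ side, and the helicase Rad3 opens the DNA. The RAD3 strain (YER171W) read -1.95 on array 1 and -1.89 on array 2 with its first tag, and -1.09 and -1.74 with its second. All 4 readings were below -1, a rule that took 0.376% of all strains on the lower side. Its strain value was -1.67 ± 0.21, the 46th lowest of 5325, which is 3.18-fold fewer tags in the LCD1 pool. The deposited ratios behind it were 3.63, 1.89, 3.49 and 3.01, a range in which rounding to hundredths is fine-grained. RAD3 is essential and its signal over background is unknown, so this reading is given as a tag ratio and not as growth of a strain.

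The RAD14 strain (YMR201C) was also below 0 with all 4 readings. All 4 readings had 1 sign in 9 of the 32 repair strains (28.1%) and in 33.1% of all strains, so such agreement does not set these strains apart. It read -0.34 on array 1 and -0.21 on array 2 with the first tag, then -0.63 and -0.54 with the second, a mean of -0.43 ± 0.074. Its limma p of 0.0328 was not adjusted, and the adjusted p of 0.193 did not pass. The second tag read further below 0 than the first on both arrays, and the mean amounts to less than 1.5-fold.

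The subunits of the 5′ nuclease stood near 0. RAD1 (YPL022W) read -0.0012 and 0.37 with its first tag and -0.28 and -0.15 with its second, a mean of -0.014 ± 0.18. RAD10 (YML095C) read -0.24 and 0.015, then -0.16 and -0.35, a mean of -0.18 ± 0.020. RAD1 had opposite signs on the 2 arrays, RAD10 was below 0 on both, and their intervals of -0.43 to 0.40 and -0.54 to 0.18 overlapped widely. The RAD2 strain, without the 3′ nuclease, averaged -0.10 ± 0.16. All 5 strains of this incision and verification step had a mean below 0, as did 45.9% of all strains, with a median of -0.18, or -0.14 over the 4 without RAD3. Without centring of the tag blocks RAD1 and RAD2 stood above 0, at 0.11 and 0.023, and with the first tag alone RAD1 stood at 0.19.

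Rad4 and Rad23 form the complex that recognises lesions across the genome. The RAD23 strain (YEL037C) was below 0 with all 4 readings, -0.062 and -0.37 for the first tag and -0.36 and -0.27 for the second, a mean of -0.27 ± 0.077. For its partner, the RAD4 strain (YER162C), the readings were scattered: -0.013 and 0.67 for the first tag, 1.08 and -0.24 for the second. The RAD4 mean of 0.38 ± 0.22 lay above 0 on both arrays, but each array owed it to a different tag.

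The Rad7-Rad16 complex, with the elongin C homolog Elc1, acts in repair of non-transcribed DNA. RAD7 (YJR052W) had a mean of 0.11 ± 0.065, RAD16 (YBR114W) of 0.072 ± 0.11 and ELC1 (YPL046C) of 0.13 ± 0.25. Behind these small means the tags of RAD7 and ELC1 lay apart. First tags read 0.43 and 0.52 for RAD7 and 0.94 and 0.35 for ELC1, whereas second tags read -0.30 and -0.21 for RAD7 and -0.32 and -0.44 for ELC1. RAD16 read 0.043 and 0.29 with its first tag, and -0.060 and 0.013 with its second.

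Rad26, the yeast homolog of human CSB, acts in transcription-coupled repair, and Rad28 is related to human CSA. The RAD26 strain (YJR035W) had the highest mean of the nucleotide excision strains, 0.41 ± 0.22, from 0.56 and 0.85 with the first tag and -0.036 and 0.28 with the second. It was above 0 on both arrays (0.26 and 0.57), yet its interval of -0.02 to 0.85 reached below 0. The RAD28 strain averaged 0.12 ± 0.059.

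Base excision repair starts with glycosylases that remove a damaged base, after which an AP endonuclease cuts the strand. OGG1 (YML060W), the 8-oxoguanine glycosylase gene, had the highest mean of all 32 strains, 0.44 ± 0.82, but its arrays stood at 1.03 and -0.14. Its first tag gave 0.58 on array 1 and 0.35 on array 2, its second 1.47 and -0.62, so that most of the gap lay in the second tag. The strain without the uracil glycosylase gene UNG1 (YML021C) read -0.33 and 0.00, then -0.56 and -0.47, a mean of -0.34 ± 0.15, below 0 on both arrays. Without the alkyl-base glycosylase gene MAG1 the mean was -0.17 ± 0.11.

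The oxidised-pyrimidine glycosylases Ntg1 and Ntg2 are close homologs. The NTG2 strain was above 0 with all 4 readings and averaged 0.34 ± 0.019. The NTG1 strain averaged 0.23 ± 0.55, with 0.62 on array 1 and -0.15 on array 2. The strain without Apn1 (YKL114C), the major AP endonuclease, read -0.31 and -0.60 with its first tag and 0.32 and -0.77 with its second, a mean of -0.34 ± 0.49. Without Apn2, the other AP endonuclease, all 4 readings were above 0 and the mean was 0.31 ± 0.20. The intervals of APN1 (-1.0002 to 0.32) and APN2 (-0.12 to 0.73) overlapped, and the arrays of APN1 differed by 0.69.

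The photolyase Phr1 splits ultraviolet-induced pyrimidine dimers directly, using light. Its strain (YOR386W) averaged -0.12 ± 0.13, with 0.22 and 0.33 for the first tag and -0.65 and -0.38 for the second.

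In mismatch repair, the MutS homologs Msh6 and Msh3 take part in binding mismatches and small loops, Pms1, Mlh2 and Mlh3 are MutL homologs, and Exo1 degrades the nicked strand. MSH3, MSH6 and PMS1 deletions lay at the centre of the pool, with means of 0.13 ± 0.017, -0.0056 ± 0.19 and 0.0034 ± 0.037. MLH3 (YPL164C) was below 0 with all 4 readings, -0.37 and -0.51 with the first tag and -0.26 and -0.032 with the second, a mean of -0.29 ± 0.031. Its interval, -0.65 to 0.07, included 0.

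The MLH2 strain (YLR035C) was the least reproducible of the 32. Its mean of 0.35 ± 1.52 combined 1.43 on array 1 and -0.73 on array 2. Its first tag read 0.082 and 0.031, whereas the second read 2.77 and -1.49, from deposited ratios of 0.13 and 2.53. At a ratio of 0.13 a step of 1 hundredth is a visible part of the value, but it is far smaller than the gap between the arrays. No direction can be read for this strain. The EXO1 strain (YOR033C) averaged -0.16 ± 0.046, from 0.29 and 0.31 with the first tag and -0.54 and -0.69 with the second.

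In end joining, the Ku heterodimer Yku70-Yku80 binds broken ends, and the ligase Dnl4 seals them with its cofactors Lif1 and Nej1. YKU70 (YMR284W) read 0.27 and -0.034, then 0.12 and 0.27, a mean of 0.16 ± 0.057. YKU80 (YMR106C) read -0.32 and -0.056, then -0.14 and 0.061, a mean of -0.11 ± 0.17. The partners had means of opposite sign, with intervals of -0.21 to 0.52 and -0.52 to 0.29 that overlapped.

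Of the ligase complex, the DNL4 strain (YOR005C) was above 0 with all 4 readings, 0.26 and 0.27 for the first tag and 0.12 and 0.32 for the second, a mean of 0.24 ± 0.076. LIF1 (YGL090W) read 0.13 and 0.31, then -0.0044 and 0.17, and averaged 0.15 ± 0.12. NEJ1 (YLR265C) was instead below 0 with all 4 readings, -0.13 and -0.25 for the first tag and -0.70 and -0.18 for the second, with a mean of -0.32 ± 0.14. The intervals were -0.12 to 0.61 for DNL4 and -0.71 to 0.08 for NEJ1, so that both included 0. The strain without the gap-filling polymerase gene POL4 averaged 0.0042 ± 0.049.

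The 4 routes were not set apart from each other by these arrays. The route median was 0.029 for nucleotide excision repair, 0.23 for base excision repair, -0.0011 for mismatch repair and 0.077 for end joining. The largest difference, base excision minus mismatch repair, was 0.23 over both arrays, but 0.21 on array 1 and -0.030 on array 2. Base excision minus nucleotide excision repair also turned over, since the base excision median stood at 0.17 on array 1 and -0.14 on array 2, against -0.075 and 0.061 for nucleotide excision. Of the 6 pairs of routes, 2 kept their order on both arrays. Nucleotide excision minus end joining was -0.091 on array 1 and -0.016 on array 2, and mismatch repair minus end joining -0.063 and -0.18. Both orders depended on the tag. Over both arrays, the first tag alone put nucleotide excision (0.18) and mismatch repair (0.058) above end joining (0.0022). The second tag alone put them below it, at -0.26 and -0.078 against 0.10. No test was made of these differences: strains are not replicates, and an exact permutation test over 2 arrays cannot go below p = 0.5.

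**Figure D2:**
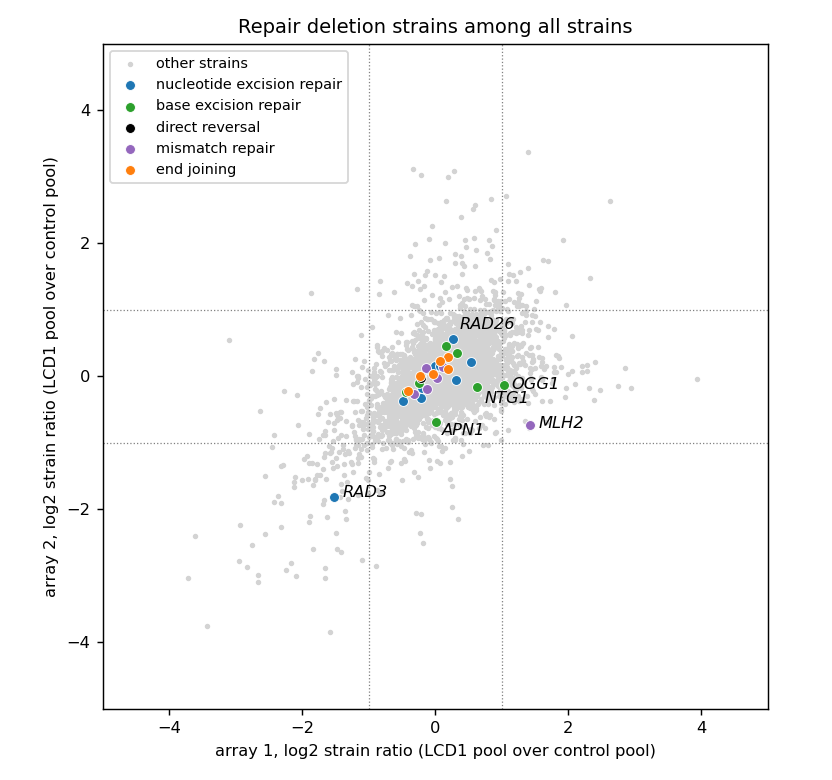
Strain values of all 5325 strains on array 1 (horizontal) and array 2 (vertical), as the log2 ratio of LCD1 pool over control pool, with the 32 repair strains coloured by route and dotted lines at 2-fold. RAD3 is the 1 repair strain in the lower left corner (-1.52 and -1.82), OGG1 and MLH2 lie to the right at 1.03 and 1.43 on array 1 alone, and the others lie inside the dotted square.

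Between arrays, the first tag repeated better than the second. Across the 32 strains, which share each array's labelling and are no replicates of a condition, the first tag gave Pearson's r of 0.85 between arrays and a Spearman's rho of 0.77, and the second tag -0.15 and 0.34. Without RAD3, r was 0.68 for the first and -0.38 for the second tag, and rho 0.75 and 0.27. The second-tag r includes MLH2, at 2.77 on array 1 and -1.49 on array 2, and the part of this strain in it was not tested. Over all strains the r between arrays was 0.66 for the first and 0.30 for the second tag, and rho was 0.58 and 0.44, a smaller gap between the tags. Within an array, first and second tags had an r of 0.087 on array 1 and 0.14 on array 2 over all strains. Among the 32 this r was 0.25 and 0.54, or 0.073 and 0.22 without RAD3. Each strain value averages 2 tags with this limited agreement. Strain values had the same sign on both arrays for 10 repair strains below 0 and 10 above 0, together 62.5% of the 32, beside 71.7% of all strains.

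4 repair strains, RAD4, NTG1, OGG1 and MLH2, had a second tag of at least 1 on array 1 and below 0 on array 2. Over all strains 176 (3.31%) did so, and 80, with 0 repair strains among them, did the reverse. These strains were named for this after their values were seen. OGG1 and MLH2 are the 2 that passed 2-fold on array 1 alone. Each of the 4 had a single feature per tag, so no repeat on the same array was at hand to check the reading. Signal over background is unknown for these arrays, and its part in the second tag readings was not tested.

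For 9 of the 32 strains, RAD1, RAD7, RAD16, RAD23, PMS1, EXO1, YKU70, YKU80 and DNL4, each tag was printed as 6 features, which shows the spread within an array. The SD between these 6 features had a median of 0.056 on array 1 and 0.12 on array 2. On array 1 it ran between 0.021 and 0.14, and on array 2 between 0.055 and 0.56, the highest being the first tag of YKU70, whose features spanned -1.05 to 0.67. The SD between arrays had a median of 0.076 and reached 0.18 for these 9, beside a median of 0.15 and a maximum of 1.52 for the 23 strains with 1 feature per tag. Strains with repeated features are averages of more spots, and the part of this in their closer arrays was not tested.

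In some strains, such as EXO1 and RAD7, these repeats show tags that differ by more than the features do. In others the features of both tags overlapped. For PMS1 on array 1 the lowest first-tag feature was -0.013 and the highest second-tag feature 0.028. All 6 first-tag features of EXO1 were above 0 on each array (lowest 0.18 and 0.15), and all 6 second-tag features were below 0 (highest -0.49 and -0.55). RAD7 had the same arrangement, with lowest first-tag features of 0.33 and 0.35 and highest second-tag features of -0.16 and -0.15. In all, 6 repair strains, RAD7, ELC1, RAD28, PHR1, PMS1 and EXO1, read above 0 with the first tag and below 0 with the second on both arrays, as did 8.02% of all strains, and 1, POL4, showed the reverse, as did 7.57% of all strains. For such strains the mean near 0 is an average of tags that point different ways. All 4 readings of DNL4 and RAD23 had the same sign in every feature.

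**Figure D3:**
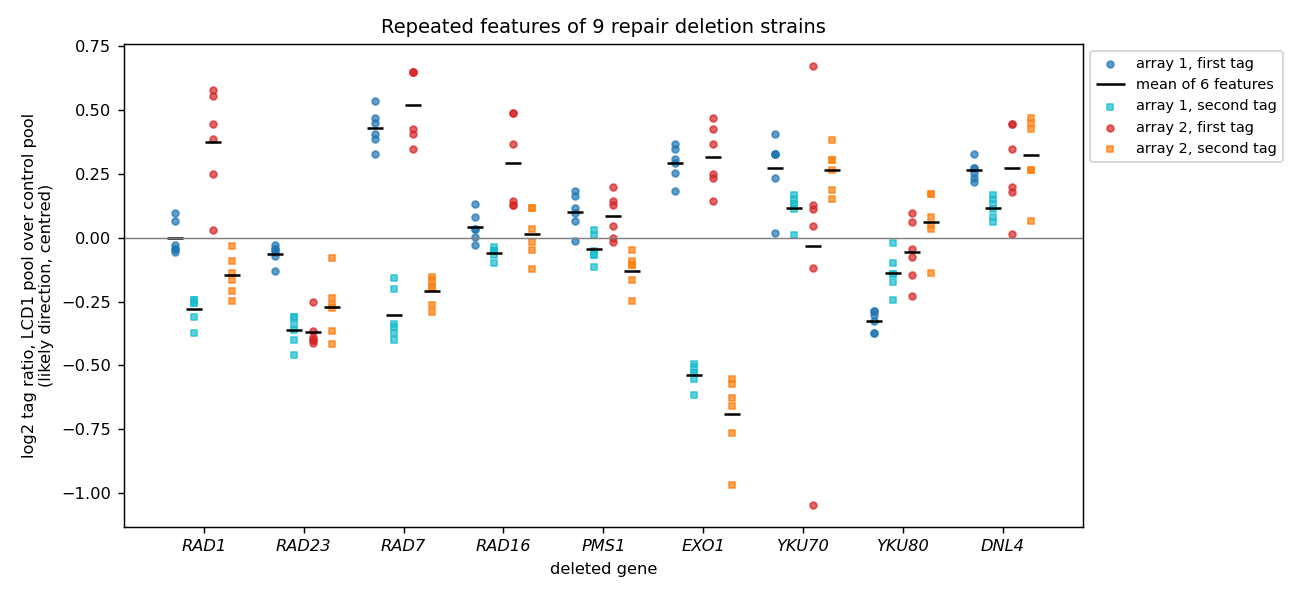
Single features of the 9 repair strains that were printed 6 times per tag. The vertical axis is the centred log2 ratio of LCD1 pool over control pool, points are features and bars their mean. First and second tags of EXO1 and RAD7 stand on opposite sides of 0 on both arrays, while all features of DNL4 lie above 0 and all features of RAD23 below.

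Values were available for 26 further genes of the same pathways. Of these, 2 deletions, RAD27 and XRS2, were at least 2-fold lower on both arrays, beside 1.82% of all strains. SSL2 was the 1 at least 2-fold higher on both arrays, beside 0.695% of all strains. limma called 0 of the 26 after adjustment, as it called 0 of all strains. At an unadjusted limma p under 0.05 it gave 7 lower, beside 10.8% of all strains, and 1 higher, beside 11.6%. RAD27 encodes the flap endonuclease of long-patch base excision repair and Okazaki fragment processing, and its deletion read -2.04 and -1.75 with the first tag, then -1.59 and -1.35, a mean of -1.68 ± 0.19. Rad50 and Xrs2 belong to the nuclease complex that also serves end joining in yeast. Their deletions averaged -1.07 ± 0.17 and -1.05 ± 0.029, while the deletion of MRE11, which encodes the third subunit, averaged -0.096 ± 0.11. The RAD50 strain read -1.01 on array 1 and -0.90 on array 2 with its first tag, and -1.37 and -1.01 with its second. XRS2 and MRE11 are named here after their values were seen, and RAD27 and these 3 genes also act outside the repair routes described here.

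The remaining measured TFIIH genes are essential like RAD3 and are given beside it, also after their values were seen. The median of their 8 strain means was -0.45, and 6 of them were below 0, as were 45.9% of all strains. Their median was -0.13 on array 1 and -0.63 on array 2. By tag it was -0.21 and -0.69 with the first tag, then 0.39 and -0.29 with the second. The strain without SSL2, the second TFIIH helicase, stood on the other side from RAD3 at 1.43 ± 0.20, from 2.56 and 1.51 with the first tag and 0.59 and 1.07 with the second. TFB3 read -1.78 and -1.80 with its first tag but 1.66 and -0.18 with its second, and KIN28 read 1.56 and 0.079, then -1.98 and -1.27. Signal over background is unknown for these strains as well.

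**Figure D4:**
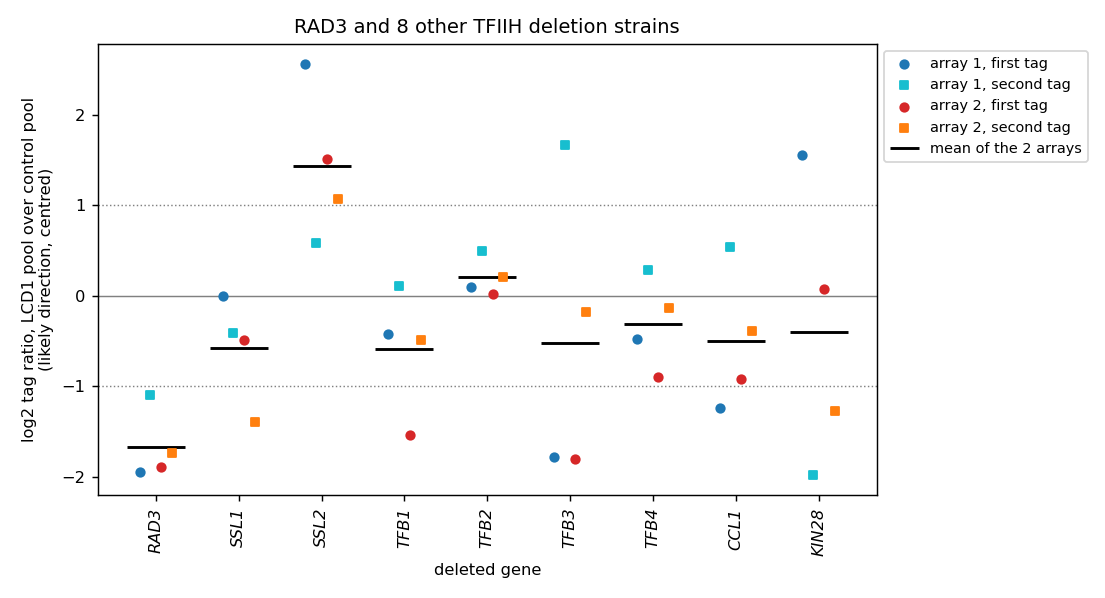
Tag ratios of RAD3 and of 8 other deletion strains of TFIIH genes, as centred log2 ratios of LCD1 pool over control pool. Circles are first tags, squares second tags, bars the mean of the 2 arrays. RAD3 has 4 readings between -1.95 and -1.09, SSL2 has 4 above 0, and the tags of TFB3 and KIN28 lie on both sides of 0.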

How the data were processed

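The deposited values are log2 ratios of the 2 dyes of each tag array; per the labels, GenePix software read the scans. Of the normalization and the numerator, the sources used here say nothing. Turned to a linear scale, 100% of the values were whole hundredths within 0.001. The deposited median was -0.136 on both arrays. Of 20036 features with a value, 18794 had 1 gene each in the platform annotation (5325 genes, all but 4 matched to assembly R64 for current symbols), and 1242 were unnamed and left out. Signs were turned, features averaged per gene and tag block, and blocks centred on their medians per array. limma 3.58.1 (R 4.3.3) tested strain values against 0 (lmFit, eBayes, two-sided, Benjamini-Hochberg over all strains, threshold 0.05; residual degrees of freedom 1, prior 2.42). The members and lists were chosen with earlier results of these data known. All members are accounted for. Tag readings are given for the 3 largest means per route, members of named complexes, PHR1 and any member past 1.5-fold on both arrays. Among the other pathway genes they are given for the 3 largest means, and for TFB3 and KIN28, added after their values were seen. Alternatives covered centring, tags, scaling, thresholds and leaving out either array.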

Additional observations from a re-analysis of the deposited data

How the results depend on the processing

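The RAD3 deletion stayed the 1 repair strain past 2-fold lower in every alternative run that kept it, among them no centring, either tag alone, scale normalization and either array alone, and the count was 0 without RAD3. The count of higher strains was 0 to 2 when either array was left out, the 2 being OGG1 and MLH2 on array 1 alone, and 0 in the other alternatives. Limma called 0 repair strains in each of its adjusted alternatives but 1, the fit of 4 tag values with the array as a random block, which called 1, RAD3, and it gave 2 at an unadjusted p. Medians moved as follows. Without centring they were 0.13 over all 32, 0.15 for nucleotide excision, 0.36 for base excision, 0.12 for mismatch repair and 0.20 for end joining, and the median of all strains was 0.16. With the first tag alone they were 0.076 over the 32, 0.18 for nucleotide excision, -0.018 for base excision, 0.058 for mismatch repair and 0.0022 for end joining. With the second tag alone they were -0.12 over the 32, -0.26 for nucleotide excision and -0.078 for mismatch repair. Base excision stood at 0.23 and end joining at 0.10 with this tag. The cause was not tested. Leaving out array 1 or array 2 gave -0.010 to -0.0022 over the 32, -0.075 to 0.061 for nucleotide excision, -0.14 to 0.17 for base excision, -0.11 to -0.047 for mismatch repair and 0.017 to 0.077 for end joining. A mean in place of the median gave -0.12 for nucleotide excision, where RAD3 enters, 0.068 for base excision and 0.021 for end joining. Of the strain means, 5 of 32 changed sign without centring, 6 with the first and 5 with the second tag alone, 9 without array 1, 3 without array 2 and 2 after scale normalization. Over all strains, 72.4% of those past 2-fold were lower, 56.5% without centring and 27.3% with the second tag alone. For the other pathway genes, alternatives were chosen after seeing the data: the lower count of 2 was 1 without centring and 4 with the first tag alone, and 3 without either array; the higher count of 1 was 0 with the second tag alone and 1 to 2 when either array was left out. No further paired analysis was possible because each ratio already pairs both pools on 1 array. Signal over background is unknown, which limits every reading.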
